A study of Ovis aries with 23 samples.

Results

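The genes described here are the 168 genes that the study's own gene table placed in its category of endoplasmic reticulum (ER), Golgi and transport genes, out of 25197 genes counted in each sample. The category was taken as given, without 13 gene names that had been set aside and that removed no gene from it. The study's table lists 1324 genes that it called differentially expressed (DE), and 64 of the 168 were in its lists from the samples analysed here (3 after 1 day of long photoperiod, 27 after 7 days and 52 after 28 days). The other 104 were listed only from a second experiment, whose samples were not analysed here. These genes were thus in part selected on the SP against LP differences of the same samples, by the study's own fold changes and p-values. Their values and calls in those comparisons are therefore a description. A call that is kept when the same samples are fitted in another way is not independent support for a difference. A total of 161 of the 168 genes have a symbol. The kinds used here are broad, and some genes belong to theirs only loosely. By what their products are known to do, they were sorted here into solute carriers (27 genes), Golgi glycosyltransferases and Golgi residents (24), proteins of secretory granules, exocytosis and vesicle traffic (19), ER folding and glycosylation (17), ER lipid and steroid enzymes (15), ion channels and calcium stores (12), lysosomal and sulfatase enzymes (10), ABC transporters and P-type ATPases (9), interferon and antigen presentation genes (6), ER-lumen collagens (3), carbonic anhydrases (2) and other proteins (17), and 7 genes have no symbol.

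The ER and the Golgi form the path on which secreted and membrane proteins are made. A protein enters the ER while it is being translated, is folded and given its first sugar chain there, has the chain trimmed and extended in the Golgi, and leaves in vesicles for the plasma membrane, the lysosome or, in endocrine cells, dense-core secretory granules. The ER is also where most membrane lipids are built and where calcium is stored. The pars tuberalis (PT) is the thin endocrine tissue around the pituitary stalk. Its thyrotrophs read the length of the night through melatonin and secrete thyrotropin on long days, so the secretory path of these cells is part of the output of the seasonal clock.

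The data were RNA sequencing counts from the PT of neutered male Scottish blackface sheep. The groups were short photoperiod (SP; 5 samples) and long photoperiod (LP) for 1, 7 or 28 days (6 samples each; LP day 1, LP day 7 and LP day 28, written LP1, LP7 and LP28), and the labels name no other treatment and give no age or time of day. Replicates were separate samples of a group, numbered within the group, and no label says what the number stands for, so p-values measure the spread between these samples only. The tissue is a mixture of cells, so fewer cells of a type and less RNA per cell cannot be told apart in any value given here.

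Total counts per sample ranged from 307952 to 4413929, with a median of 3332320. The shallowest library was LP1 sample 4, in which 3 counts amounted to 9.74 CPM (counts scaled to a common library total), against 1.62 CPM or less in every other sample. Its counts differed from those of LP1 sample 3 by little more than the sampling noise (chi-square per gene 1.14, against 1.75 or more for all other pairs within a group). Both were kept, and with their counts summed 0 of the genes were called between SPs and LP1, 0 from LP1 to LP7, 5 from LP1 to LP28 and 10 for CRY1, comparisons described further on. All 4 thyrotroph markers were paired with a gene, and their summed level was 7563 to 9889 CPM on SPs, 4134 to 11882 CPM at LP1, 6658 to 9910 CPM at LP7 and 9553 to 12416 CPM at LP28. Most of this sum was CGA (3886 to 11559 CPM over all samples), the common hormone subunit gene that pars distalis cells also express. The sum therefore does not follow PT thyrotrophs alone. Pars distalis hormone genes and their regulators (7 of 8 markers paired) summed to 35048 to 140996 CPM on SPs, 46656 to 271168 at LP1, 46579 to 176770 at LP7 and 74658 to 272765 at LP28, so every library also held RNA of pars distalis type. The melatonin receptor gene MTNR1A was the only marker listed at 0, in 1 sample. Markers of neurons, endothelium and red blood cells could not be paired with an identifier.

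The 168 genes covered a wide range of levels. The mean over 23 samples was 0 in 3 genes, above 0 and below 1 CPM in 7, 1 to below 10 CPM in 48, 10 to below 100 CPM in 82, and 100 CPM or more in 28, with a median of 18.9 CPM. Read counts were not divided by gene length, so levels are compared between samples and not between genes. LAPTM4A, a lysosomal membrane protein, had the highest count of the 168. Its level was 873 ± 110 CPM on SPs (SD, n = 5), 851 ± 49.1 at LP1, 848 ± 80.9 at LP7 and 883 ± 96.6 at LP28 (n = 6 each), differences well within the spread. DAD1, a subunit of the oligosaccharyltransferase that puts the sugar chain on nascent proteins, was as even, with 123 ± 8.42 CPM on SPs and 131 ± 18.4 CPM at LP28. Of the 158 genes with a mean of 1 CPM or more, 69 had their highest group mean at LP28, 35 on SPs, 32 at LP7 and 22 at LP1, and 66 had their lowest on SPs. The group mean went up at every step from SPs through LP1, LP7 and LP28 in 41 genes and down at every step in 11. The 11 were B3GNT4, CCDC153, CD5, DIRAS2, KCNA4, MMEL1, PEBP4, REM1, SLC2A12, SLC6A12 and STMN2. Shares over all genes were not computed for these orders of the group means. Part of the genes were chosen on differences between these groups, so nothing is read from the counts.

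To ask how the genes differed between SPs and LPs, each LP day was compared with SPs over all genes by edgeR's quasi-likelihood test, and a gene was called at a Benjamini-Hochberg FDR under 0.05. At LP1, no gene of any kind was called (0% of 14920 genes tested), and DESeq2 and limma voom called none of the 160 members tested either. An unadjusted p under 0.05 was found for 13 of the 160, and for 3.33% of all genes. None of the 160 was clear of SPs in all samples, where 0.0871% of all genes were higher and 0.134% lower without overlap. At LP7, 3 of 159 were called, all higher on LPs, where 0.266% of all 15030 genes were called (0.193% higher and 0.0732% lower), and 49 of the 159 had an unadjusted p under 0.05, as 14.4% of all genes had. At LP28, 13 of 155 were called, 12 higher and 1 lower, where 0.67% of all 14929 genes were called (0.422% higher and 0.248% lower), and 73 had an unadjusted p under 0.05, as 13.8% of all genes had. The median log2 fold change of LP over SP was 0.05, 0.14 and 0.18 at LP1, LP7 and LP28, beside 0.00, −0.01 and −0.01 over all genes tested. At LP28 it was 0.65 in the genes that the study had listed from these samples (62 tested) and 0.10 in those listed from the other experiment (93 tested, 1 called). Both sets were shaped by these samples, the first as genes that passed the study's threshold here and the second as genes that did not, so nothing is read from these shares. The 3 comparisons also share the SP samples.

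**Figure D1:**
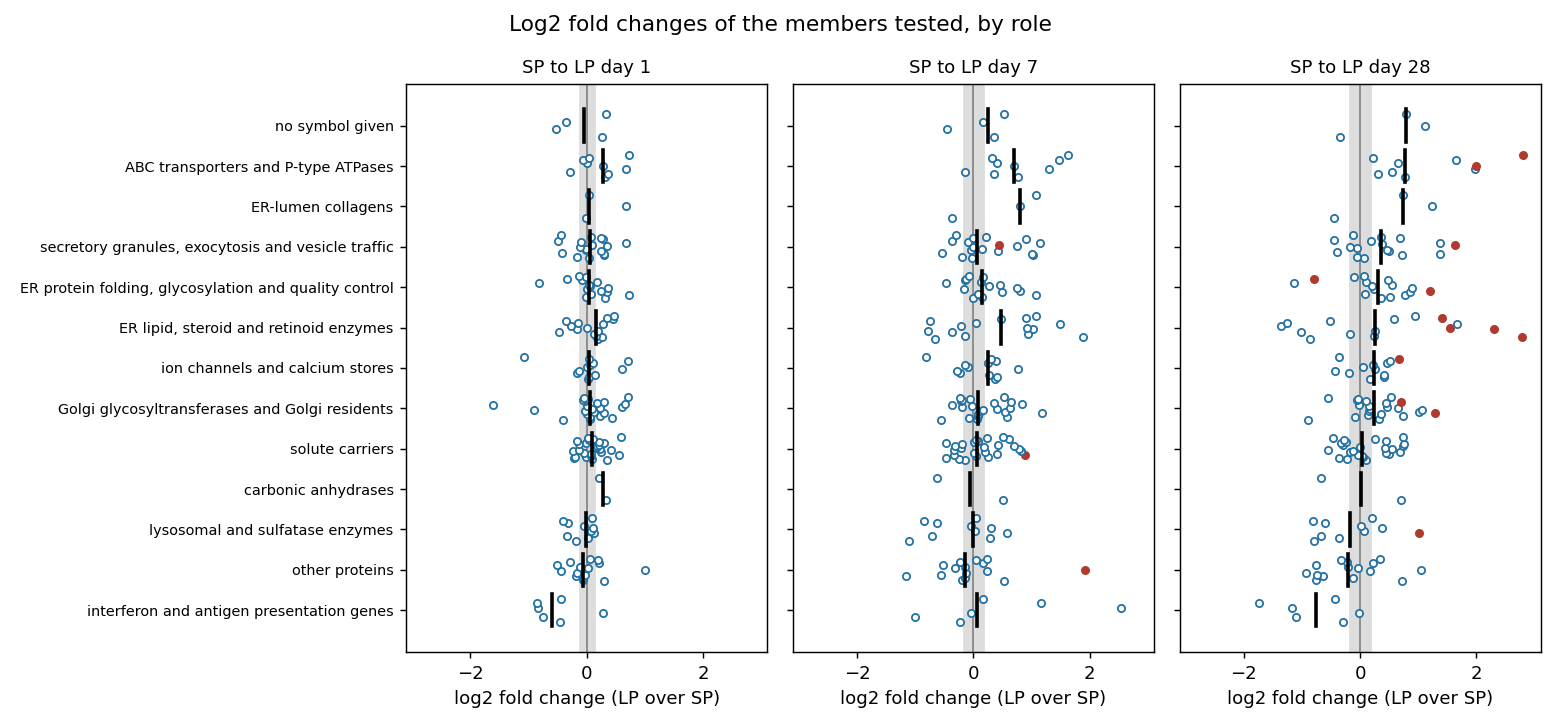
Log2 fold change of LP over SP for each of the genes tested, at LP1, LP7 and LP28, by what the products do. Filled red points are called, open blue points are not, the black tick is the median of each kind, and the grey band and line give the middle of the distribution and the median of all genes tested. No point is filled at LP1, 3 are at LP7 and 13 at LP28, and the ABC transporters and P-type ATPases all lie above 0 at LP28. Most of these transporters and ATPases had been listed by the study from the contrast of SPs with LP28.

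The LP28 count rested in part on single samples. Without SP sample 2 it was 7, and without SP sample 4, LP28 sample 1 or LP28 sample 3 it was 8. With GH1, a pars distalis hormone gene, as a covariate it stayed at 13, and with the CRY1 level as a covariate it was 16.

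All 9 ABC transporters and P-type ATPases were higher at LP28 than on SPs, with a median log2 fold change of 0.78 and with 2 of them called. Over all genes tested, 49.1% were higher and 0.67% were called. Most of the 9 had been listed by the study from this same contrast, so nothing is read from their count. The choice of genes bears in the same way on the counts given below for the other kinds. ABCG2, an efflux pump of the plasma membrane for drugs and small metabolites, was at 44.0, 43.7, 59.1, 53.8 and 64.3 CPM in the 5 SP samples. Its lowest, median and highest values were 61.2, 63.7 and 67.8 CPM at LP1, 46.6, 88.3 and 112.5 CPM at LP7 and 88.5, 200.3 and 364 CPM at LP28. Every LP28 sample lay above every SP sample, whereas LP7 overlapped with SPs. The log2 fold change of ABCG2 at LP28 was 1.99 ± 0.25 (SE), and it was called in all 21 alternative fits, 11 of which left out a sample. The study had listed ABCG2 from this same contrast, so these fits describe steadiness within these samples only. ATP8B4, a P-type ATPase of the family that flips phospholipids between membrane leaflets, was at 3.71, 1.02, 3.46, 2.59 and 5.36 CPM on SPs. It was at 6.23, 9.16 and 15.04 CPM (lowest, median and highest) at LP7 and at 9.42, 19.4 and 50.8 CPM at LP28. Neither LP day overlapped with SPs, and the log2 fold change of ATP8B4 was 1.63 ± 0.35 at LP7 and 2.80 ± 0.41 at LP28, the largest of the 155. ABCC8, the sulfonylurea receptor of ATP-sensitive potassium channels, had the highest count of the 9, and its medians of 90.9 CPM on SPs and 140.5 CPM at LP28 came with overlapping ranges. Its relative ABCC9, the channel subunit of vascular smooth muscle and pericytes, was at 7.35 ± 4.05 CPM on SPs (SD, n = 5) and 29.3 ± 19.5 CPM at LP28 (n = 6). That log2 fold change of 1.98 ± 0.48 for ABCC9 was as large as that of ABCG2 but had a larger SE, and the groups overlapped. ATP8B3 and ABCA6, the members of these families that differed least, had log2 fold changes of 0.22 ± 0.16 and 0.30 ± 0.33.

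Enzymes that act on lipids in the ER were mixed, with 9 of 15 higher at LP28 (median log2 fold change 0.25) and 4 called. CYP4V2, a cytochrome P450 that hydroxylates the end of fatty acids, was at 104, 48.4, 106.5, 51.2 and 60.4 CPM on SPs. Its values were 58.6, 67.9 and 97.5 CPM (lowest, median and highest) at LP1, 101 to 195 CPM around a median of 132 at LP7, and 149, 232 and 242 CPM at LP28. SP samples 1 and 3 were about as high as the lowest LP7 samples, and the LP28 samples were clear of all SP samples. The log2 fold change of CYP4V2 at LP28 was 1.54 ± 0.20, and this call too was kept in all 21 alternatives.

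CYP4F22, a P450 of ultra-long-chain fatty acids, was near the floor on SPs, at 1.32, 2.03, 4.33, 1.62 and 1.13 CPM, and was at 5.05, 11.3 and 14.5 CPM (lowest, median and highest) at LP28 without overlap. Its log2 fold change was 2.29 ± 0.39. ACSL4, an acyl-CoA synthetase that favours arachidonic acid, was at 146, 88.7, 105, 75.5 and 77.3 CPM on SPs and at 113, 519 and 1509 CPM at LP28. Its log2 fold change of 2.79 came with an SE of 0.58, since the LP28 samples fell on both sides of a wide gap and the lowest of them overlapped with SPs. The LP28 call of ACSL4 was lost without any one of SP samples 2 to 5 or of LP28 samples 1, 3 and 5, and with CRY1 as a covariate. SGPP2, which removes the phosphate of sphingosine-1-phosphate, was at 3.18, 2.71, 3.75, 3.24 and 3.95 CPM on SPs, at 5.09 to 8.61 CPM at LP7 and at 5.40 to 14.8 CPM at LP28. Both LP days were clear of SPs, with log2 fold changes of 0.91 ± 0.24 and 1.41 ± 0.31, but the LP28 call for SGPP2 was lost in 15 of 21 alternatives, among them the fits without any one of the 5 SP samples or without LP28 samples 1, 2, 4 or 6. SGPL1, which cleaves the same lipid, did not overlap between SPs and LP28 either (log2 fold change 0.59 ± 0.13) and was not called.

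The other lipid enzymes were not called and ran in both directions. SPTLC3, a subunit of the enzyme that starts sphingolipid synthesis, was at 14.2 ± 5.08 CPM on SPs (SD, n = 5) and 27.5 ± 8.48 CPM at LP28 (n = 6), and ELOVL6 was at 5.43 ± 3.21 and 17.5 ± 12.9 CPM, where the samples of LP28 lay far apart. Lower means at LP28 were found for ACSBG1, an acyl-CoA synthetase of very long chains (20.1 ± 12.4 and 10.9 ± 4.68 CPM), ALOX5AP, the helper of leukotriene synthesis (5.42 ± 2.64 and 2.63 ± 1.19 CPM), ELOVL3, another elongase (4.39 ± 3.26 and 1.71 ± 0.687 CPM), and FA2H, which hydroxylates sphingolipid fatty acids (2.71 ± 1.59 and 1.06 ± 0.582 CPM). All of these had overlapping groups. CYP26B1, which breaks down retinoic acid, was at 26.2 ± 14.2 CPM on SPs and 31.3 ± 18.6 CPM at LP28.

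**Figure D2:**
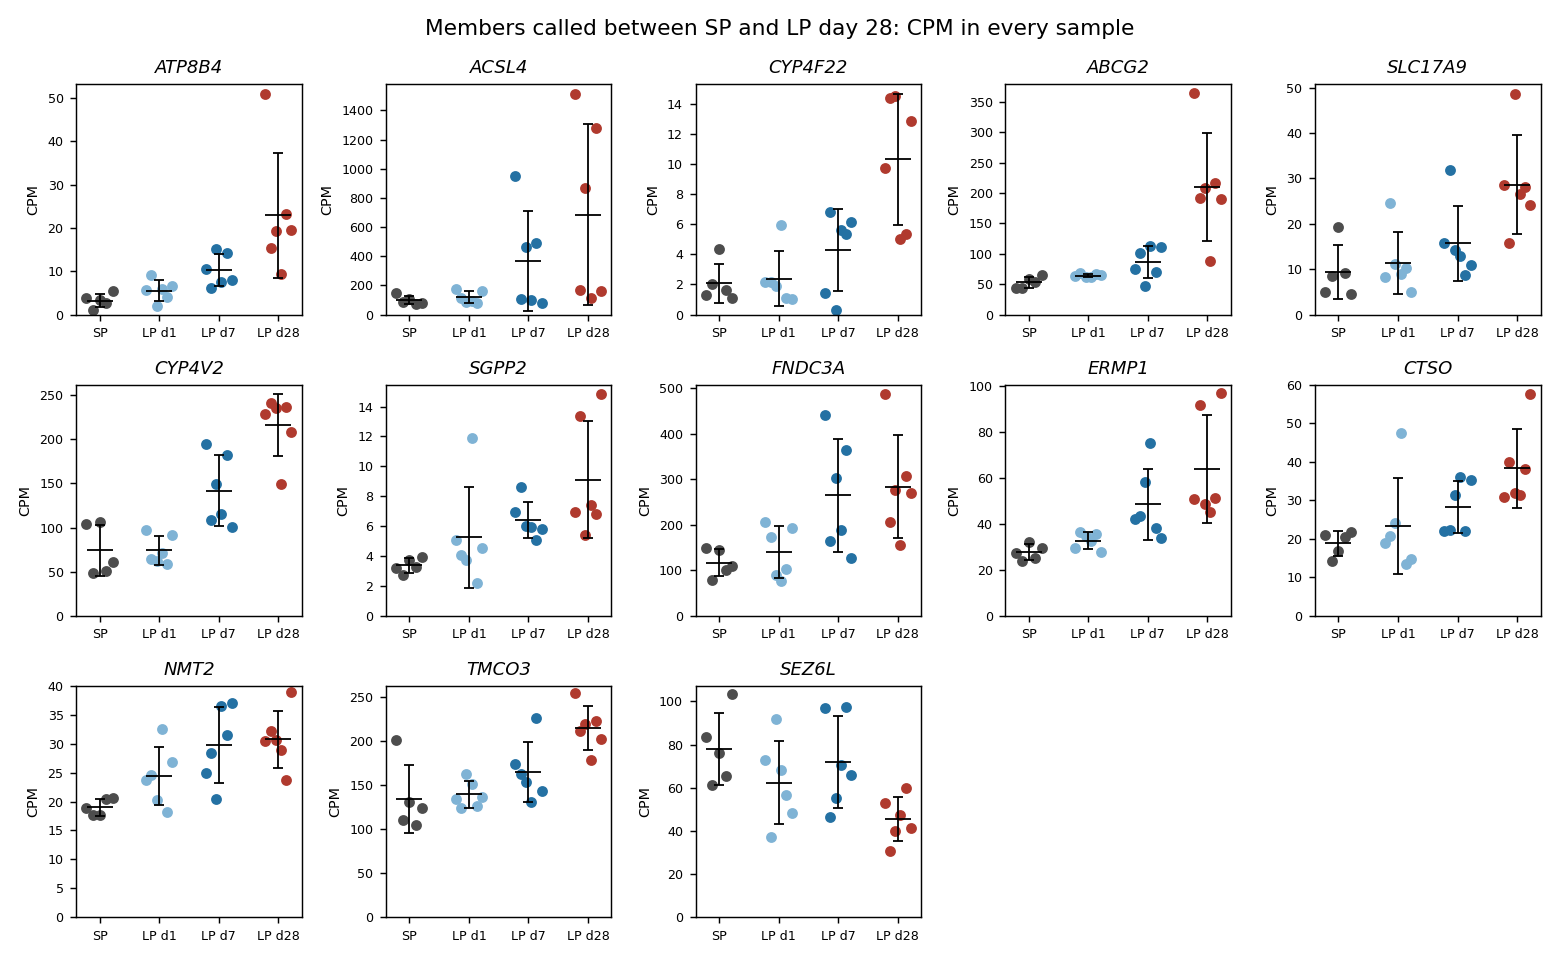
CPM in every sample (points) of the 13 genes called between SPs and LP28, in the 4 groups, with the mean and SD of each group as black bars, on axes that start at 0 and in the order of the log2 fold change. The LP28 samples of ABCG2, CYP4V2, ATP8B4, CYP4F22 and ERMP1 all lie above the SP samples, SEZ6L is the one gene that is lower at LP28, and ACSL4 has LP7 and LP28 samples far apart within the group.

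Of 16 genes of ER folding, glycosylation and quality control, 13 were higher at LP28 (median log2 fold change 0.30), and 1 was called in each direction. ERMP1, a metallopeptidase of the ER membrane, was at 27.3, 23.7, 32.3, 25.3 and 29.6 CPM on SPs, at 34.0, 42.8 and 75.2 CPM (lowest, median and highest) at LP7 and at 45.1, 51.1 and 97.0 CPM at LP28. Neither LP day overlapped with SPs. The log2 fold change of ERMP1 was 0.81 ± 0.19 at LP7 and 1.20 ± 0.20 at LP28. RPN2, an oligosaccharyltransferase subunit like DAD1, was at 514, 512, 487, 451 and 567 CPM on SPs and at 577, 661 and 910 CPM at LP28. Its groups did not overlap, and the log2 fold change of 0.48 ± 0.12 was not called, while DAD1 in the same complex overlapped fully. SEZ6L, a membrane protein best known from neurons, was at 83.7, 61.3, 75.9, 65.5 and 103 CPM on SPs and at 30.8, 44.4 and 60.0 CPM at LP28. All LP28 values of SEZ6L lay below all SP values, with a log2 fold change of −0.79 ± 0.16, but the call was lost in 9 of 21 alternatives, among them the fits without SP sample 1, 3 or 5 or without LP28 sample 2, 3, 4 or 6. MRAP2, an accessory protein of melanocortin receptors, was also lower without overlap, at 6.09 to 8.65 CPM on SPs and 1.42 to 4.79 CPM at LP28 (log2 fold change −1.13 ± 0.30, not called).

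Several genes of ER quality control had higher means at LP28 with overlapping groups and no call. EDEM1, which directs misfolded glycoproteins to degradation, was at 22.02 ± 9.83 CPM on SPs (SD, n = 5) and 40.0 ± 7.37 CPM at LP28 (n = 6). H6PD, which makes NADPH in the ER lumen, was at 11.7 ± 3.12 and 21.98 ± 6.67 CPM, MLEC, a lectin that binds the early sugar chain, at 42.5 ± 9.82 and 62.3 ± 6.49 CPM, and CKAP4, a shaper of ER sheets, at 50.7 ± 6.08 and 72.4 ± 17.6 CPM. The log2 fold changes of these 4 lay between 0.51 (CKAP4) and 0.90 (H6PD). POFUT2, TXNDC16 and SHISA2 were nearly level, with log2 fold changes of 0.10 ± 0.11, 0.07 ± 0.26 and −0.10 ± 0.27.

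The kind sorted with the Golgi also held genes better known from elsewhere, among them GRHL1, PWP1, OGN and NMT2. Of this mixed kind, 16 of 22 were higher at LP28 (median log2 fold change 0.24), with 2 called. FNDC3A, a fibronectin-domain protein of the Golgi, was at 149, 78.9, 145, 99.5 and 110 CPM on SPs and at 155, 273 and 487 CPM (lowest, median and highest) at LP28, with no overlap and a log2 fold change of 1.28 ± 0.23, a call of FNDC3A that was lost in 1 of 21 alternatives, without SP sample 2. NMT2, which attaches myristate to proteins and is named here after its values were seen, was at 17.6 to 20.6 CPM on SPs and 23.7 to 39.0 CPM at LP28 (log2 fold change 0.70 ± 0.14, a call that was lost in 11 of 21 alternatives, among them the fits without SP samples 1, 2, 3 or 4 or LP28 samples 1, 2, 3 or 6). The Golgi genes with the most counts moved little. GOLM1, a Golgi membrane protein, had medians of 213 CPM on SPs and 242 CPM at LP28, and CHPF, a chondroitin synthase subunit, had medians of 263 and 342 CPM, in both cases with overlap.

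In the group of granules, exocytosis and vesicle traffic, 11 of 17 genes were higher at LP28 (median log2 fold change 0.36) and 1 was called. The called gene was SLC17A9, the carrier that loads ATP into secretory vesicles, named here after its values were seen. It was at 5.03, 8.46, 19.3, 9.07 and 4.51 CPM on SPs and at 15.7, 27.3 and 48.6 CPM (lowest, median and highest) at LP28, where SP sample 3 lay within the LP range, and the log2 fold change of SLC17A9 was 1.63 ± 0.33. This call was lost without SP sample 1, 2, 4 or 5 or LP28 sample 1, 3 or 6. SORL1, a receptor that sorts cargo between Golgi and endosomes, was one of the genes called at LP7. It was at 163, 150.0, 152, 171 and 181 CPM on SPs and at 202, 222 and 247 CPM at LP7, and stayed clear of SPs at LP28 (192 to 266 CPM). The log2 fold changes of SORL1 were small, 0.44 ± 0.09 at LP7 and 0.38 ± 0.10 at LP28, and the LP7 call was lost without any one of SP samples 1 to 4 or of the 6 LP7 samples. SCG3, a secretogranin that binds cargo in dense-core granules, was at 484, 715, 557, 718 and 448 CPM on SPs. It overlapped with SPs at LP28 (691, 782 and 936 CPM, log2 fold change 0.46 ± 0.13), but all LP28 samples lay above all LP7 samples (440 to 679 CPM).

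Ion channel genes had a median log2 fold change of 0.24 at LP28, with 9 of 12 higher. TMCO3, a predicted ion exchanger, was the called gene, at 200.2, 110, 130, 104 and 124 CPM on SPs and 178, 215 and 254 CPM (lowest, median and highest) at LP28. SP sample 1 lay within the LP range, and the log2 fold change of TMCO3 was 0.68 ± 0.15, with the call lost without any one sample other than SP sample 1 and LP28 sample 4. ITPR1, the calcium channel of the ER that opens with inositol trisphosphate, and LRRC8D, a subunit of volume-regulated anion channels, were higher at LP28 without overlap, with log2 fold changes of 0.41 ± 0.09 and 0.46 ± 0.11, and were not called.

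Solute carriers, the largest group, showed no common direction, with 13 of 25 higher at LP28, a median log2 fold change of 0.03 and none called (6 had an unadjusted p under 0.05). SLC17A9, also a solute carrier and called at LP28, was counted above with the granule genes. SLC23A2, a vitamin C transporter, was called at LP7. It was at 17.5, 11.5, 19.9, 14.3 and 14.7 CPM on SPs and at 22.6, 28.1 and 36.4 CPM (lowest, median and highest) at LP7 without overlap, and was back within reach of the SP values at LP28 (13.4 to 28.8 CPM). The log2 fold change of SLC23A2 at LP7 was 0.89 ± 0.17, and the call was lost without any one of SP samples 1, 2, 4 and 5 or of LP7 samples 1 to 5. SLC26A11, an anion exchanger and the solute carrier with the most counts, had medians of 326 CPM on SPs and 297 CPM at LP28.

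PTPN5, a tyrosine phosphatase tethered in part to the ER, had the largest fold change of the genes called at LP7. It was at 18.5, 20.7, 35.8, 12.3 and 42.0 CPM on SPs. Its values were 28.7, 43.9 and 103 CPM (lowest, median and highest) at LP1, 71.2, 86.6 and 158 CPM at LP7 and 38.7, 50.2 and 80.4 CPM at LP28. LP7 was clear of SPs, whereas LP1 and LP28 overlapped with both. The log2 fold change of PTPN5 was 1.91 ± 0.29 at LP7 and 1.04 ± 0.26 at LP28. The count of 3 called at LP7 was 0 without SP sample 2, 1 without SP sample 1 or 4 or any of LP7 samples 1 to 5, and 5 without LP7 sample 6.

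Lysosomal and sulfatase genes were split evenly, with 5 of 10 higher at LP28 (median log2 fold change −0.18). CTSO, a cysteine cathepsin, was the called one, at 20.9, 14.2, 16.7, 20.4 and 21.7 CPM on SPs, 22.04, 26.8 and 36.0 CPM (lowest, median and highest) at LP7 and 31.0, 35.0 and 57.7 CPM at LP28. Both LP days were clear of SPs, with log2 fold changes for CTSO of 0.57 ± 0.18 and 1.01 ± 0.18. KIAA1324, an endosomal and lysosomal membrane protein with a high count, was at 511 to 776 CPM on SPs and 792 to 939 CPM at LP28, also without overlap (log2 fold change 0.37 ± 0.10, not called). CA2, the widespread cytosolic carbonic anhydrase, was at 38.6 to 50.3 CPM on SPs, 55.4 to 77.9 CPM at LP7 and 52.6 to 104 CPM at LP28, clear of SPs on both days. CA3, the muscle form, varied between 5.03 and 188 CPM over the samples without separating the groups.

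Counted over all genes, 16 of the 155 were higher at LP28 without overlap and 2 lower, where 1.11% and 0.871% of all genes tested were so. At LP7, 8 of 159 were higher without overlap and 1 lower, beside 1.26% and 0.778% of all genes. CCDC153, listed with the other proteins, is also a marker of ependyma and tanycytes. It was lower at LP28 (35.1 ± 7.64 CPM on SPs, n = 5, and 20.6 ± 4.12 CPM at LP28, n = 6). Only 2 of 4 ependymal markers were paired, CCDC153 itself and DIO2. Their sum, 33.9 to 54.5 CPM on SPs and 22.3 to 40.4 CPM at LP28, is thus not separate from CCDC153. DIO2 overlapped, at 16 to 51 raw counts on SPs and 13 to 62 at LP28. Whether the share of such cells differed was not tested.

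The kind sorted as interferon and antigen presentation genes was the one with all members lower at LP28 (6 of 6, median log2 fold change −0.76). None was called, 3 had an unadjusted p under 0.05, and the smallest difference was −0.026. The 6 included CD5 and GIMAP8, which are better known from lymphocytes. Single samples set the values of OAS2 and MX2. OAS2, an interferon-induced sensor of double-stranded RNA, was at 24.6, 26.4, 317, 26.3 and 18.3 CPM on SPs. Its lowest, median and highest values were 17.8, 22.3 and 155 CPM at LP1, 18.3, 25.6 and 1002 CPM at LP7 and 22.2, 24.5 and 30.0 CPM at LP28. SP sample 3, LP1 sample 5 and LP7 sample 3 thus stood far above all others, which were alike across the 4 groups. MX2, another interferon-induced gene, was also highest in LP7 sample 3 (805 CPM) and was at 0 in LP1 samples 3 and 4.

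The LP days were also compared with each other, which leaves out the SP samples, though the LP samples helped to choose the genes. Between LP1 and LP28, 7 of 156 were called, all higher at LP28, where 0.216% of all genes were called. They were CYP4V2, ABCG2, CYP4F22, TMCO3, ATP8B4, ERMP1 and ACSL4. The call was kept in all 22 alternatives for CYP4V2 and ABCG2. It was lost in 15 of 22 for ACSL4, 11 for ERMP1, 2 each for TMCO3 and ATP8B4, and 1 for CYP4F22. This comparison and that of SPs share the LP28 samples. The log2 fold changes of LP28 over LP1 were 1.54 ± 0.15 for CYP4V2, 1.71 ± 0.22 for ABCG2 and 2.46 ± 0.38 for CYP4F22. With the counts of LP1 samples 3 and 4 summed 5 genes were called, and without LP1 sample 3 the count was 4. Neither of the shorter steps called any of the genes by edgeR's test. From LP1 to LP7, 0 of 159 were called (28 with an unadjusted p under 0.05, as 5.56% of all genes had), where 0.0201% of all genes were, DESeq2 called 1 and voom none, and edgeR called 1 without LP1 sample 2. From LP7 to LP28, 0 of 157 were called (30 with an unadjusted p under 0.05, as 7.13% of all genes had), where 0.00672% of all genes were, DESeq2 called 7 and voom none, and edgeR called 1 without LP7 sample 3 and 2 without LP28 sample 4. RPN2 was higher at LP28 than at LP7 by a log2 fold change of 0.63 ± 0.11 without overlap, and PTPN5 was lower by 0.87 ± 0.20 on the log2 scale.

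Within the LP groups some of the genes varied far more than others. At LP7 and LP28 the level of a few of them followed the parity of the sample number. Earlier results of these data had shown clock genes to differ by this number, so the comparison was not chosen blind. The number was not used to choose the genes, but high odd samples raise the LP means behind that choice, so the counts are not independent of it. In a fit over the 12 samples with the group as a term, 6 of 157 were called between odd and even numbers, all lower in the even ones, where 1.02% of all 14890 genes were called and 0.719% were called lower. Of the 63 genes listed by the study from these samples 5 were called (7.94%), and of the 94 others 1 was (1.06%). The same 6 had no overlap between the odd and the even samples, beside 0.853% of all genes in that direction, and 35 of the 157 had an unadjusted p under 0.05, as 10.1% of all genes had.

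ACSL4 differed most. At LP7 it was at 952, 462 and 489 CPM in samples 1, 3 and 5 and at 109, 99.3 and 78.2 CPM in samples 2, 4 and 6. At LP28 it was at 1509, 867 and 1280.3 CPM in samples 1, 3 and 5 and at 171, 113 and 163 CPM in samples 2, 4 and 6. The even samples were thus near the level of the SP samples, and the odd ones were several-fold above it. Over both days ACSL4 was at 927 ± 418 CPM in odd and 122 ± 36.9 CPM in even samples (SD, n = 6 each), a 7.36-fold difference (log2 −2.88 ± 0.19, FDR = 1.54e-07 by edgeR's quasi-likelihood test), and it was called in all 19 alternatives, including each LP day alone.

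Of the other 5, ELOVL6 and ATP8B1 had the largest differences. ELOVL6, which lengthens fatty acids of the ER, was at 18.0 to 31.9 CPM in the odd and 5.34 to 6.73 CPM in the even samples of LP7, and at 18.8 to 37.9 and 3.08 to 13.6 CPM at LP28. Its means over both days were 26.3 ± 7.63 and 6.72 ± 3.61 CPM (n = 6 each), a 3.97-fold difference (edgeR FDR = 0.000811). ATP8B1, a phospholipid flippase of the same family as ATP8B4, was at 21.4 ± 8.55 CPM in odd and 5.47 ± 2.40 CPM in even samples, also 3.97-fold apart (edgeR FDR = 0.00127). FNDC3A was at 302 to 442 CPM in the odd and 128 to 188 CPM in the even samples of LP7, and at 277 to 487 and 155 to 269 CPM at LP28, so that the gap was narrow at LP28 (edgeR FDR = 0.00356 over both days). SLC39A6, a zinc importer, was at 159 ± 37.4 and 82.3 ± 8.57 CPM (1.90-fold, edgeR FDR = 0.000502), and SLC25A17, a peroxisomal carrier of coenzyme A and other cofactors, was at 110 ± 15.3 and 73.1 ± 7.70 CPM (1.497-fold, edgeR FDR = 0.00712). None of the 6 calls was lost when any single sample was left out. With LP7 alone 5 members were called and with LP28 alone 2, given without the shares over all genes. No member had a difference between the days that passed the test (0 of 157 by edgeR, 18 with an unadjusted p under 0.05). Over all 14890 genes, 1 was called and 1014 had an unadjusted p under 0.05.

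**Figure D3:**
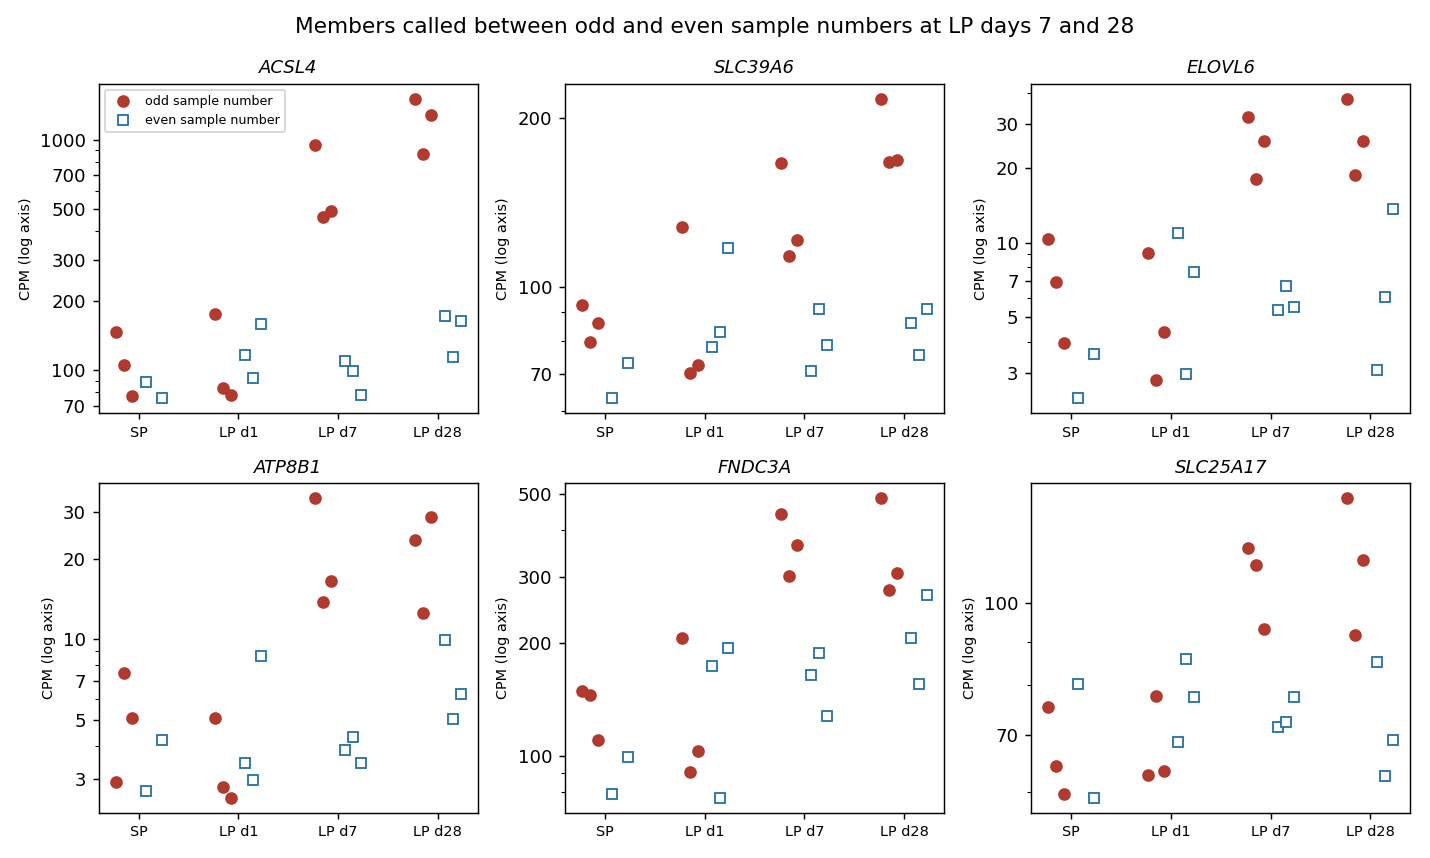
CPM on a log axis of the 6 genes called between odd (filled red circles) and even (open blue squares) sample numbers at LP7 and LP28, with the SP and LP1 samples shown for comparison. At LP7 and LP28 the odd samples lie above the even ones in every panel, most clearly for ACSL4. The SP and LP1 samples were not part of the test.

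TNPO1, a nuclear import receptor, and ABCA5, an ABC transporter of lysosomes and late endosomes named here after its values were seen, went the other way. The even samples of both were above all odd ones, where 0.477% of all genes were, but neither was called (TNPO1: log2 difference 0.49, edgeR FDR = 0.0557). ABCG2 did not follow the number. Its even samples were higher at LP7 (101 to 113 CPM, against 46.6 to 75.7 CPM in odd ones) and lower at LP28 (88.5 to 191 CPM, against 209 to 364 CPM).

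Marker genes were compared over the same 12 samples. Pars distalis markers summed to 46579 to 272765 CPM in odd and 74658 to 252987 CPM in even samples, thyrotroph markers to 6658 to 12416 and 7563 to 10488 CPM, and folliculostellate markers to 1523 to 1778 and 1335 to 1850 CPM, so that all 3 overlapped. The thyrotroph sum was mostly CGA. Within the thyrotroph list, however, EYA3 (123.1 to 969 CPM in odd and 30.9 to 58.5 CPM in even samples) and MTNR1A (14.5 to 41.5 and 0.537 to 7.02 CPM) did not overlap. TSHB, of the same list, went the other way at LP7, at 1137 to 1558 raw counts in odd and 1942 to 4288 in even samples. At LP28 TSHB overlapped (2209 to 6840 and 2736 to 3875 raw counts). The part of these 3 genes in the difference was not tested. The clock gene CRY1, a repressor of the circadian clock whose RNA cycles over the day, did not overlap between odd and even samples. It lay at 16.9 to 34.5 CPM in 10 samples and at 138 to 406 CPM in the other 13, with no sample between. The lower range held SP samples 1 and 3, LP1 samples 1 and 6, and all odd samples of LP7 and LP28, so that at these days the number and the CRY1 level cannot be told apart. Labels give no time of day, and its part in the difference was not tested.

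On SPs and at LP1 the CRY1 level went against the parity of the number in SP sample 5 and in LP1 samples 3, 5 and 6. CRY1 was therefore used as a continuous measure in a fit over all 23 samples with the group as a term, which gives a slope, the change of a gene's log2 level per log2 unit of CRY1 within groups. Of 161 genes tested, 10 had a slope called at an FDR under 0.05, 9 negative and 1 positive, where 1.69% of all 15653 genes were called (1.15% negative and 0.537% positive). The choice of genes bears on this count too, since 8 of the 64 listed by the study from these samples were called (12.5%) and 2 of the 97 others (2.06%). With the sample number as a replicate block 0 of the 10 slopes were called, and the FDR of ACSL4 was 0.093. The medians of the lower and the higher CRY1 samples were 3.33 log2 units apart.

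ACSL4 had a slope of −0.58 ± 0.084 (SE, edgeR FDR = 0.000134). CYP4V2 (−0.18 ± 0.028, edgeR FDR = 0.000357), ELOVL6 (−0.49 ± 0.076, FDR = 0.000357), FNDC3A (−0.25 ± 0.041, FDR = 0.000532), SLC39A6 (−0.20 ± 0.034, FDR = 0.00095) and ATP8B1 (−0.44 ± 0.08, FDR = 0.00162) had negative slopes as well. So did ATP2C2, the calcium and manganese pump of the Golgi (−0.15 ± 0.031, FDR = 0.00832). These 7 calls were kept in each of the 23 fits without a sample.

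The other 3 were less steady. TNPO1 had the positive slope (0.11 ± 0.028, edgeR FDR = 0.0307), which was no longer called without SP sample 1 or 5, LP7 sample 1, 2, 4 or 5, or LP28 sample 5 or 6. SGSM1, a modulator of small G proteins in vesicle traffic (−0.09 ± 0.024, edgeR FDR = 0.0391), lost its call in 17 of 23 such fits, and MX2 (−0.61 ± 0.156, edgeR FDR = 0.0384) in 13, among them the fit without LP7 sample 3. With SP and LP1 samples alone 2 genes had a slope past the threshold, ACSL4 (−0.23, edgeR FDR = 0.0346) and CYP4V2 (−0.23, FDR = 0.0211). With LP7 and LP28 alone there were 9. The shares over all genes in these subsets are not given.

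**Figure D4:**
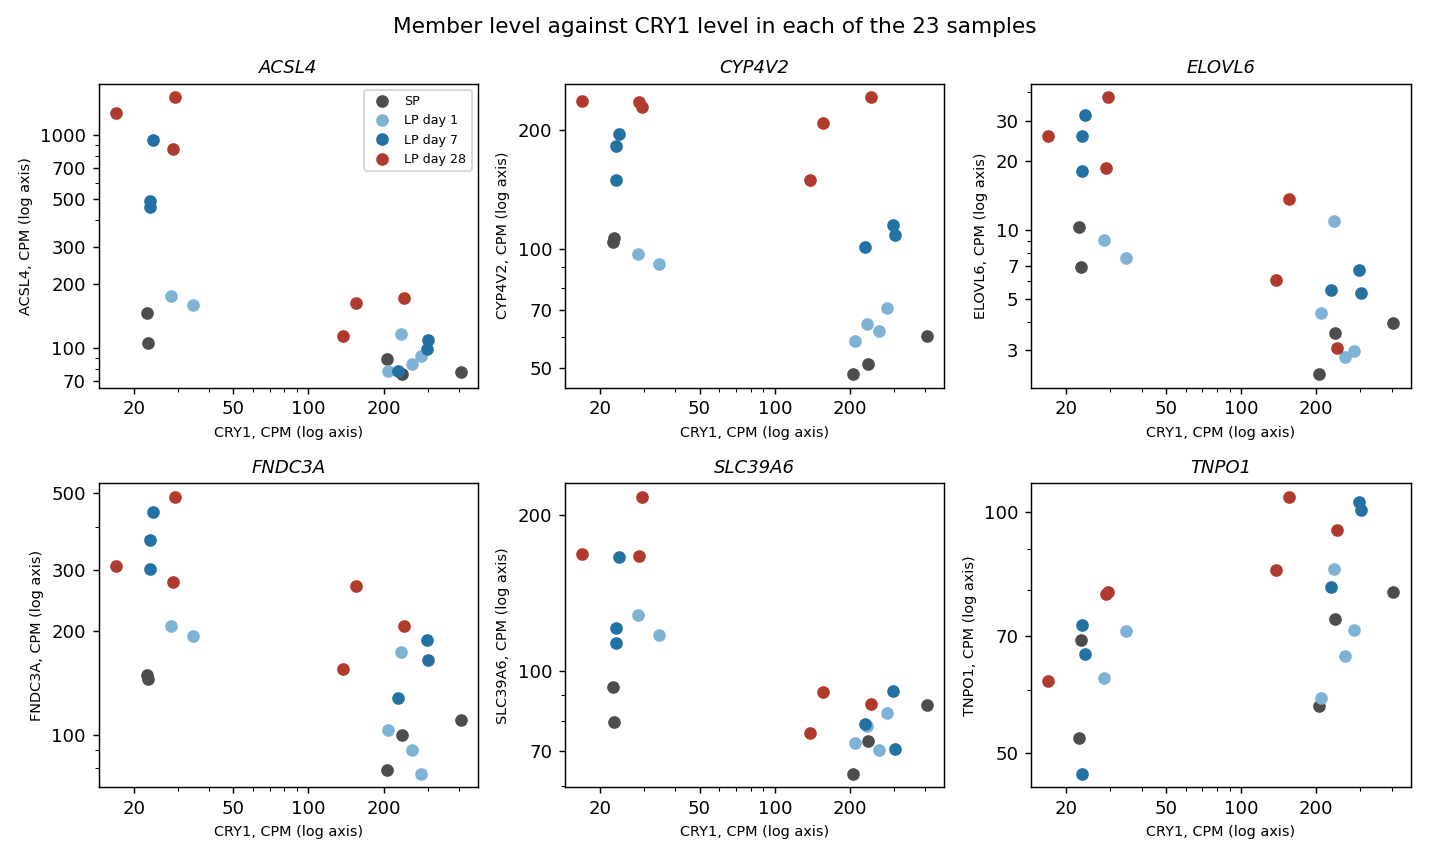
CPM of 6 genes with a called slope against the CPM of CRY1 in each of the 23 samples, coloured by group, both on log axes. The samples fall into a lower and a higher range of CRY1, ACSL4, CYP4V2, ELOVL6, FNDC3A and SLC39A6 are lower and TNPO1 is higher in samples with more CRY1, and the ACSL4 points of LP7 and LP28 rise well above those of SP and LP1 at low CRY1.

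The slope of ACSL4 differed between the groups, in a test added after the data had been seen. It was −0.22 ± 0.074 on SPs and at LP1 and −0.85 ± 0.072 at LP7 and LP28, a difference of −0.62 ± 0.104 (edgeR FDR = 0.019). ACSL4 was the only one of the 161 with such a difference past the threshold, where 0.0192% of all genes passed it. EYA3, of the thyrotroph list, was among those outside the 161 that passed. Its slopes were −0.13 ± 0.096 on SPs and at LP1 and −1.05 ± 0.089 at LP7 and LP28 (edgeR FDR = 0.00358 for the difference). At high CRY1, ACSL4 was thus at 78.2 to 171 CPM at LP7 and LP28 and at 75.5 to 117 CPM on SPs and at LP1. At low CRY1 it was at 462 to 1509 CPM at the later days and at 105 to 175 CPM on SPs and at LP1.

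To set these genes beside the rest of the secretory path, 119 other genes were listed from general knowledge of ER chaperones, translocation, the oligosaccharyltransferase, vesicle coats, Golgi structure, and granules with prohormone processing. Only 5 of them could be paired with an identifier, all in the last class (CHGB, VGF, PCSK1, PCSK2 and SYT4). They were paired through the study's lists of DE genes, so their differences between groups are not independent evidence. VGF, a granule protein cut into peptides, was the one of the 5 called between SPs and LP28. It was at 126, 94.8, 96.1, 64.8 and 87.2 CPM on SPs and at 108, 202 and 398 CPM (lowest, median and highest) at LP28, with overlap (log2 fold change 1.33 ± 0.27), and the call was lost without SP sample 2, 3 or 4 or LP28 sample 1. CHGB, a granule core protein, was lower at LP7 by 0.50 ± 0.11 on the log2 scale and was not called, and no call among the 5 was made at LP1 or 7. In the odd and even samples of LP7 and LP28, all 5 were lower in the even ones and 3 were called, beside 1.02% of all genes. VGF was at 280 ± 87.9 CPM in odd and 129.9 ± 39.7 CPM in even samples (SD, n = 6 each, edgeR FDR = 0.00275), and PCSK1, the protease that starts the cutting of prohormones, was at 553 ± 251 and 271 ± 99.2 CPM (edgeR FDR = 0.00712). SYT4, a synaptotagmin of secretory granules, was lower in the even samples by 0.62 ± 0.14 on the log2 scale (edgeR FDR = 0.036), a call lost in 12 of 19 alternatives. VGF and PCSK1 also had called slopes on CRY1, −0.31 ± 0.044 for VGF and −0.23 ± 0.054 for PCSK1 (edgeR FDR = 0.000146 and 0.0191). The slope of SYT4 was −0.14 ± 0.034 (edgeR FDR = 0.0381), a call lost in 19 of 33 alternatives.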

How the data were processed

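RNA of the PT of neutered male sheep was sequenced in 23 samples. The authors deposited whole-number counts of reads per Ensembl gene, on build Oar_v3.1 per the labels. Bowtie and HTSeq are named in the labels, but the headers of the files have the look of TopHat output, so the counting program remains uncertain. Versions are not given in the sources used here.

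Tests were made with edgeR 4.0.16 under R 4.3.3. The samples of a comparison were normalized by TMM, a gene was tested if it passed 1 CPM in a number of samples equal to the smaller group or more (6 for odd against even numbers, 5 for CRY1), and the quasi-likelihood test was run over all genes with Benjamini-Hochberg adjustment. SEs are the absolute log2 fold change over the square root of F. CPM of single samples are TMM normalized over all 23 samples, and CRY1 entered as log2 CPM with a prior count of 0.5. Total counts ranged from 307952 to 4413929, and the floor of 3 counts covers counting error only, since several reads may stem from a single molecule when no molecular identifiers are used. On simulated data, the test of SPs against LP28 (14799 genes, 200 changed) recovered 67% of 2-fold and 97.9% of 4-fold changes, and 4.73% of its calls were unchanged genes. Each simulated gene varied independently around a single mean per group. The real samples of a group also differed in many genes together, so these rates may not hold for them.

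Groups came from the labels, symbols from the study's tables and the kinds of gene from general knowledge. The 168 genes, the lists and the comparisons were chosen with earlier results of these data known. The genes named are those called in any of 8 comparisons (where over 12 were called, the 6 per direction with the smallest p), for LP7 and LP28 the 5 per direction with the largest change among genes without overlap at 5 CPM or more in the higher group, the 2 with the highest count of each kind, and the called or highest of the 119 other secretory genes. Named outside this rule, after their values were seen, are SLC17A9, NMT2, ITPR1, CCDC153, DIO2, MTNR1A, EYA3 and TSHB. So are the genes whose means fell at every step, and further pumps, lipid enzymes and ER quality control genes. Some others are named only to say what a kind held. The values of 1 gene that the rule names are not reported here.

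Alternatives were DESeq2 1.42.0, limma 3.58.1 with voom, library size in place of TMM, no filter, all groups in a single fit, the sample number as a replicate block, CRY1 or GH1 as a covariate, SP samples 2, 3 and 5 only (those closest to the study's lists), LP1 samples 3 and 4 summed, and each sample left out in turn. The set of alignment folders as a covariate and the test of CRY1 slopes between groups were added after seeing the data. No sequences or positions are given, since no genome of this build was used here.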

Additional observations from a re-analysis of the deposited data

Results flagged for a closer look

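A total of 24 sample values lay apart from the rest of their group by Dixon's test at the 95% level, among 188 combinations of a named gene and a group, where chance alone gives about 1 in 20. They fell on 18 genes and 15 samples.

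Interferon-induced genes gave the widest gaps. OAS2 was highest in SP sample 3 (316.5 CPM), LP1 sample 5 (154.8 CPM) and LP7 sample 3 (1002 CPM), and MX2 in LP7 sample 3 (804.6 CPM). B2M, the light chain of class I antigen-presenting molecules, was highest in LP28 sample 5 (1171 CPM).

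In LP1 sample 4, the shallowest library, CYP4F22 (5.934 CPM), CTSO (47.47 CPM), MRAP2 (8.9 CPM) and SGPP2 (11.87 CPM) were the highest of their group. These values rest on 2, 16, 3 and 4 counts, so the depth does not separate them well from the others.

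At LP28, CYP4V2 was lowest in sample 4 (149.4 CPM), ATP8B4 highest in sample 1 (50.83 CPM), SORL1 in sample 2 (265.9 CPM) and CTSO in sample 6 (57.69 CPM). On SPs, CYP4F22 was highest in sample 3 (4.328 CPM), TMCO3 in sample 1 (200.2 CPM) and SELENBP1, a selenium-binding protein, in sample 2 (133.4 CPM), and PCSK1 was lowest in sample 2 (196.4 CPM). SELENBP1 was also highest in LP7 sample 5 (125.8 CPM). SLC17A9 was highest in sample 2 both at LP1 (24.68 CPM) and at LP7 (31.75 CPM). At LP1, KIAA1324 (1057 CPM) and SCG3 (837.2 CPM) were highest in sample 2, and LRRC8D (153.2 CPM) and ATP2C2 (29.92 CPM) in sample 6.

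The slope of ACSL4 on CRY1 differed between groups. It was steeper at LP7 and LP28 than on SPs and at LP1, by −0.623 ± 0.104 (SE, edgeR FDR = 0.019 for the difference).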

How the results depend on the processing

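No result changed direction under an alternative. By count of the 168 genes called, the main values and those that moved by more than 1.5 times were as follows. Between SPs and LP7 (3), DESeq2 gave 16, the replicate block 12, CRY1 as a covariate 8, voom 1 and SP samples 2, 3 and 5 alone 0. Between SPs and LP28 (13), DESeq2 gave 35, and the replicate block and SP samples 2, 3 and 5 alone gave 8 each. With library size in place of TMM the split at LP28 was 9 higher and 3 lower, beside 12 and 1. From LP1 to LP7 (0), DESeq2, CRY1 as a covariate and GH1 as a covariate gave 1 each. From LP7 to LP28 (0), DESeq2 gave 7, and no filter, all groups in a single fit and the replicate block gave 2 each. From LP1 to LP28 (7), DESeq2 gave 12 and voom 4. Between odd and even numbers (6), DESeq2 gave 15, no filter 12 and LP28 alone 2. For CRY1 (10), SP and LP1 alone gave 2 and the replicate block 0. Of the 5 other secretory genes, DESeq2 called 1, the replicate block 2 and GH1 as a covariate 1 at LP7 (main 0), and DESeq2 called 2, all groups in a single fit 0 and SP samples 2, 3 and 5 alone 0 at LP28 (main 1). Counts under the alternatives, here and above, come without the share called over all genes and are not read as results about the 168. The causes were not tested.

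With each sample left out in turn, the counts were 0 to 0 at LP1, 0 to 5 at LP7 and 7 to 14 at LP28 against SPs, 0 to 1, 0 to 2 and 4 to 9 for LP1 to LP7, LP7 to LP28 and LP1 to LP28, 6 to 9 between odd and even numbers and 7 to 11 for CRY1. For the 5 other secretory genes they were 0 to 0, 0 to 1 and 0 to 1 at LP1, LP7 and LP28. The correlation of deviations between samples with the same number ranged from −0.24 to 0.35. Some pairs were over 0.1, but in no comparison were all of them, so the number was not treated as pairing the samples.

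Depth limits genes near 3 counts, which is 9.74 CPM in LP1 sample 4 and at most 1.62 CPM elsewhere, so low genes such as CYP4F22, SGPP2 and MRAP2 were not resolved there.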
